A study of Mus musculus with 42 samples.

Results

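Expression of 10 genes of the bone morphogenetic protein (BMP) pathway was followed through mouse RNA-seq data on bisphenol S (BPS), a plasticizer and estrogen mimetic. The genes were chosen by symbol, with earlier results of these data known, and all 10 were among the 22186 genes of the expression matrix. They were the inhibitors of DNA binding Id1, Id2, Id3 and Id4, the inhibitory SMADs Smad6 and Smad7, the receptor SMAD gene Smad9, the decoy receptor gene Bambi, the ligand gene Bmp4 and the homeobox gene Msx2. The 42 libraries formed 14 groups of 3. Induced pluripotent stem cells (iPSCs) were exposed to ethanol vehicle or to BPS at 1, 50 or 100 μM, and Sertoli cells, granulosa cells and primordial germ cell-like cells (PGCLCs) to vehicle or 1 μM BPS. A persistence experiment added iPSCs exposed to vehicle or 1 μM BPS and the PGCLCs derived from such iPSCs, which were not themselves exposed.

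The iPSCs were 1 male line from fibroblasts of a single fetus that carried a tetO-4F2A reprogramming cassette, and all iPSC and PGCLC groups shared this cassette. The iPSCs were kept with LIF and kinase inhibitors without feeder cells. Sertoli cells came from pooled testes of juvenile male littermates and granulosa cells from preantral follicles of juvenile female littermates, in different media. PGCLCs were made from epiblast-like cells over several days with recombinant BMP4, SCF, EGF and LIF, and were sorted for FUT4 and ITGB3. Every vehicle and exposed PGCLC had therefore received BMP4 protein, whereas the iPSC medium contained none. Exposure lasted 24 h and was followed by 24 h without BPS, or by 8 h for the directly exposed PGCLCs. By the study's methods, replicates were parallel culture flasks, or batches of plates for PGCLCs, and the Sertoli or granulosa flasks were seeded from pooled cells. The p-values therefore describe the spread among parallel cultures of 1 line or 1 cell pool, not among animals.

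BMP ligands bind type I and type II serine/threonine kinase receptors, which phosphorylate SMAD1, SMAD5 and SMAD9, and these enter the nucleus with SMAD4. The ID genes and Msx2 are classical targets, and Smad6, Smad7 and Bambi are targets whose products dampen the signal in return. In the mouse embryo, BMP4 from the extraembryonic ectoderm induces primordial germ cells from the epiblast, the step that PGCLC culture imitates. In the ovary, BMPs from theca cells and oocytes act on granulosa cells.

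The sequence before the RefSeq transcription start is shown for 4 members. These were Id2, called with BPS in both iPSCs and PGCLCs, Smad9 and Smad6, called in PGCLCs, and Id4, called in no BPS comparison. Promoter sequences of RefSeq (GRCm38.p6), 250 bases upstream of the start, were matched for 7 of the 10 genes. For Id2 only the part outside annotated exons of GENCODE M21 is given, 89 bases that end 161 bases before the RefSeq start. These bases lie inside the Id2 gene of GENCODE M21, which starts further upstream than the RefSeq start. Capitals mark matches, on either strand, to GGCGCC or GCCGNCGC, GC-rich elements bound by BMP-activated SMADs, or to GTCTG, which holds the SMAD4 core.
Id2 (chr12:25096254-25096342, minus strand): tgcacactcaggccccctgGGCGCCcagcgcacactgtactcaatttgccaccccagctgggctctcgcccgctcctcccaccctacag
Smad9 (chr3:54755332-54755581, plus strand): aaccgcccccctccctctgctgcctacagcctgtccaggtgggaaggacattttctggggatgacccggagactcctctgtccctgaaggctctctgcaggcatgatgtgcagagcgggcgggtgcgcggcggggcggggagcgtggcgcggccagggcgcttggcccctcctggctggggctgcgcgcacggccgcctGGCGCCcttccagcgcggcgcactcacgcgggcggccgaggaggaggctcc
Smad6 (chr9:64022060-64022309, minus strand): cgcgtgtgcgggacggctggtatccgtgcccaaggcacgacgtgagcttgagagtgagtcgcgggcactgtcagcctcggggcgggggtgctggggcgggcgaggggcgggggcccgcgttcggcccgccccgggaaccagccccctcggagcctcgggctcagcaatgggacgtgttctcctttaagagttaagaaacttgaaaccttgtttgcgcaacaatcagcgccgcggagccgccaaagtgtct
Id4 (chr13:48260866-48261115, plus strand): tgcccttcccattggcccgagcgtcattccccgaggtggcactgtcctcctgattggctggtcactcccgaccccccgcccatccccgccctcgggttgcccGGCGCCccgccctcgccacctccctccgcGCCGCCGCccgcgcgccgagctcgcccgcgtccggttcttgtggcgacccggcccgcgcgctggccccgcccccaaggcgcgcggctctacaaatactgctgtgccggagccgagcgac
GGCGCC was present once upstream of Id2, 225 bases before the start, once upstream of Id4 (142 bases before it) and once upstream of Smad9 (45 bases before it). It was found in 3 of the 7 member promoters and in 9.54% of 27025 promoters of the same length. GCCGNCGC was found upstream of Id4 and Msx2 and in 6.73% of all promoters. GTCTG occurred 2 times upstream of Id3 and in 42.1% of all promoters. The windows of Id3 and Msx2 lay wholly within exons of these genes in GENCODE M21. Their matches are therefore upstream of the RefSeq start only. The matches upstream of Id4 did not overlap each other. The windows were rich in G and C (61.6 to 75.6%, against a median of 52% over all promoters), and a match is a description of these letters only.

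The libraries held 26693847 to 44524376 counted reads. Pluripotency markers (8 genes such as Pou5f1 and Nanog) summed to at least 5440 CPM (library-scaled reads, TMM-normalized) in iPSC libraries and to at most 74.6 CPM in Sertoli and granulosa libraries. The 8 PGCLC markers were all at a mean of at least 1 CPM in each PGCLC group, where pluripotency markers still summed to 1865 to 3454 CPM. In each iPSC group 7 of the 8 also reached that mean. Summed PGCLC markers were at 275 to 283 CPM in directly cultured vehicle PGCLCs and 179 to 182 CPM in vehicle iPSCs of the dose series. Between these groups, Dppa3 (20.8 against 37.7 CPM) and Prdm14 (42.6 against 44.7 CPM) had lower means in PGCLCs, and the other markers higher means. Sertoli markers were at 2792 to 3002 CPM in Sertoli libraries, beside peritubular myoid and smooth muscle markers at 1196 to 1343 CPM and fibroblast markers at 976 to 1195 CPM. Granulosa markers were at 2838 to 2960 CPM in granulosa libraries, where 6 of 7 had a vehicle mean of at least 1 CPM. Fshr was at 0.451 CPM in granulosa vehicle and 3.93 CPM in Sertoli vehicle. Smooth muscle markers were at 2204 to 2565 CPM in granulosa libraries, fibroblast markers at 3215 to 3796 CPM and steroidogenic theca and Leydig markers at 1314 to 1466 CPM. In granulosa vehicle the steroidogenic sum was carried by Cyp11a1 (650 CPM), Hsd3b1 (574) and Star (154), with Cyp17a1 at 0.553 and Insl3 at 0.0433. Whether it came from granulosa cells or other cells was not tested. The part of any other cells in the levels below was not tested, and in bulk RNA a change in cell makeup cannot be told apart from a change within cells. Some libraries stood apart from their replicates. PGCLC vehicle replicate 1 had a mean chi-square per gene (near 1 for counting error alone) of 40.9 and 38.2 against its replicates, which had 2.02 between them, and rRNA-type genes took 1.03% of its reads against 0.150 and 0.184%. Replicate 2 of the exposed persistence-experiment iPSCs had 57.8 and 55.7 against 5.94 for the other pair. Granulosa vehicle replicate 2 had 17.9 and 25.1 against 3.60. Replicate 3 of the PGCLCs derived from exposed iPSCs had 15.1 and 13.1 against 6.54. In dose series iPSCs at 1 μM every pair was at 19.2 to 25.5. In the derived PGCLC groups, vehicle replicate 2 stood apart from the other two, with 469 against 348 and 350 CPM for the summed PGCLC markers and 2393 against 3054 and 3236 CPM for the summed pluripotency markers.

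The members fell into distinct patterns across the vehicle groups. Id2, Id3, Smad6 and Smad9 had their highest mean in granulosa cells, and Smad7, Bambi, Bmp4 and Msx2 had theirs in a PGCLC group. Id1 was about as high in granulosa cells as in PGCLCs, and Id4 about as high in directly cultured PGCLCs as in dose series iPSCs. Id4 was the only member called lower than in iPSCs in both somatic cell types. Msx2, at few reads, also had a lower mean in both, and was called in Sertoli cells. Length-scaled levels, in CPM per kb of exons, allow comparison between genes. In vehicle iPSCs of the dose series, Id3 was highest at 18.4 ± 1.45 (SD, n = 3), followed by Smad7 at 14 ± 0.134, Id1 at 8.51 ± 0.376 and Id4 at 7.26 ± 0.656. In vehicle PGCLCs, Id1 led at 116 ± 2.88, before Id3 at 80.1 ± 1.32, Smad7 at 36.4 ± 0.941 and Id2 at 31.3 ± 0.817. In granulosa cells, Id3 at 145 ± 4.17 and Id1 at 119 ± 5.16 stood above Id2 at 55 ± 3.82 and Smad6 at 42.5 ± 0.819. Smad9, which encodes a SMAD phosphorylated by BMP receptors, was the lowest member in both vehicle PGCLC groups. In vehicle iPSCs and Sertoli cells only Msx2 was lower than Smad9. Smad9 stood at 0.512 ± 0.00806 CPM per kb in dose series iPSCs, 0.838 in directly cultured PGCLCs and 4.42 ± 0.282 in granulosa cells.

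**Figure D1:**
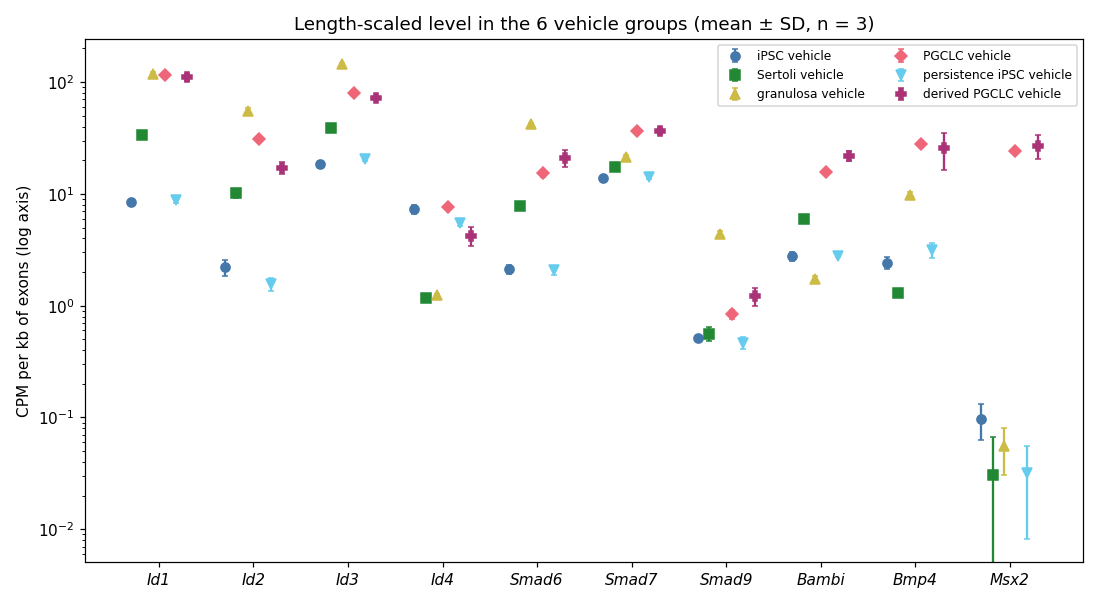
Length-scaled level of the 10 genes in the 6 vehicle groups, in CPM per kb of exons on a log axis, as mean ± SD of 3 libraries. Msx2 lies at 24.0 and 26.9 in the PGCLC groups and below 0.1 in the other 4, and the Sertoli bar of Msx2 runs past the lower edge because 1 library had 0 reads.

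Each gene was then placed in all 42 libraries on the CPM scale. Msx2 stood at 77, 79.4 and 79.2 CPM in vehicle PGCLCs and at 72.2, 112 and 80.3 CPM in vehicle derived PGCLCs. In the other 10 groups it never passed 0.660 CPM, and it had 0 reads in Sertoli vehicle replicate 1, which allows up to 0.111 CPM. Bambi, which encodes a receptor-like protein without a kinase, had another order of cell types: 8.16 to 9.35 CPM in granulosa vehicle, 12.7 to 15.3 in iPSC vehicle, 28.9 to 31.6 in Sertoli vehicle and 78.2 to 81.5 in PGCLC vehicle. Those 4 ranges did not overlap. Bmp4, the ligand gene, was lowest in Sertoli cells (2.85 to 3.08 CPM) and had its highest vehicle mean in directly cultured PGCLCs (62 to 62.7 CPM). Id1 was nearly level in granulosa vehicle (132, 144 and 136 CPM), PGCLC vehicle (132, 134 and 138 CPM) and derived PGCLC vehicle (127, 119 and 138 CPM), and these 3 groups overlapped.

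**Figure D2:**
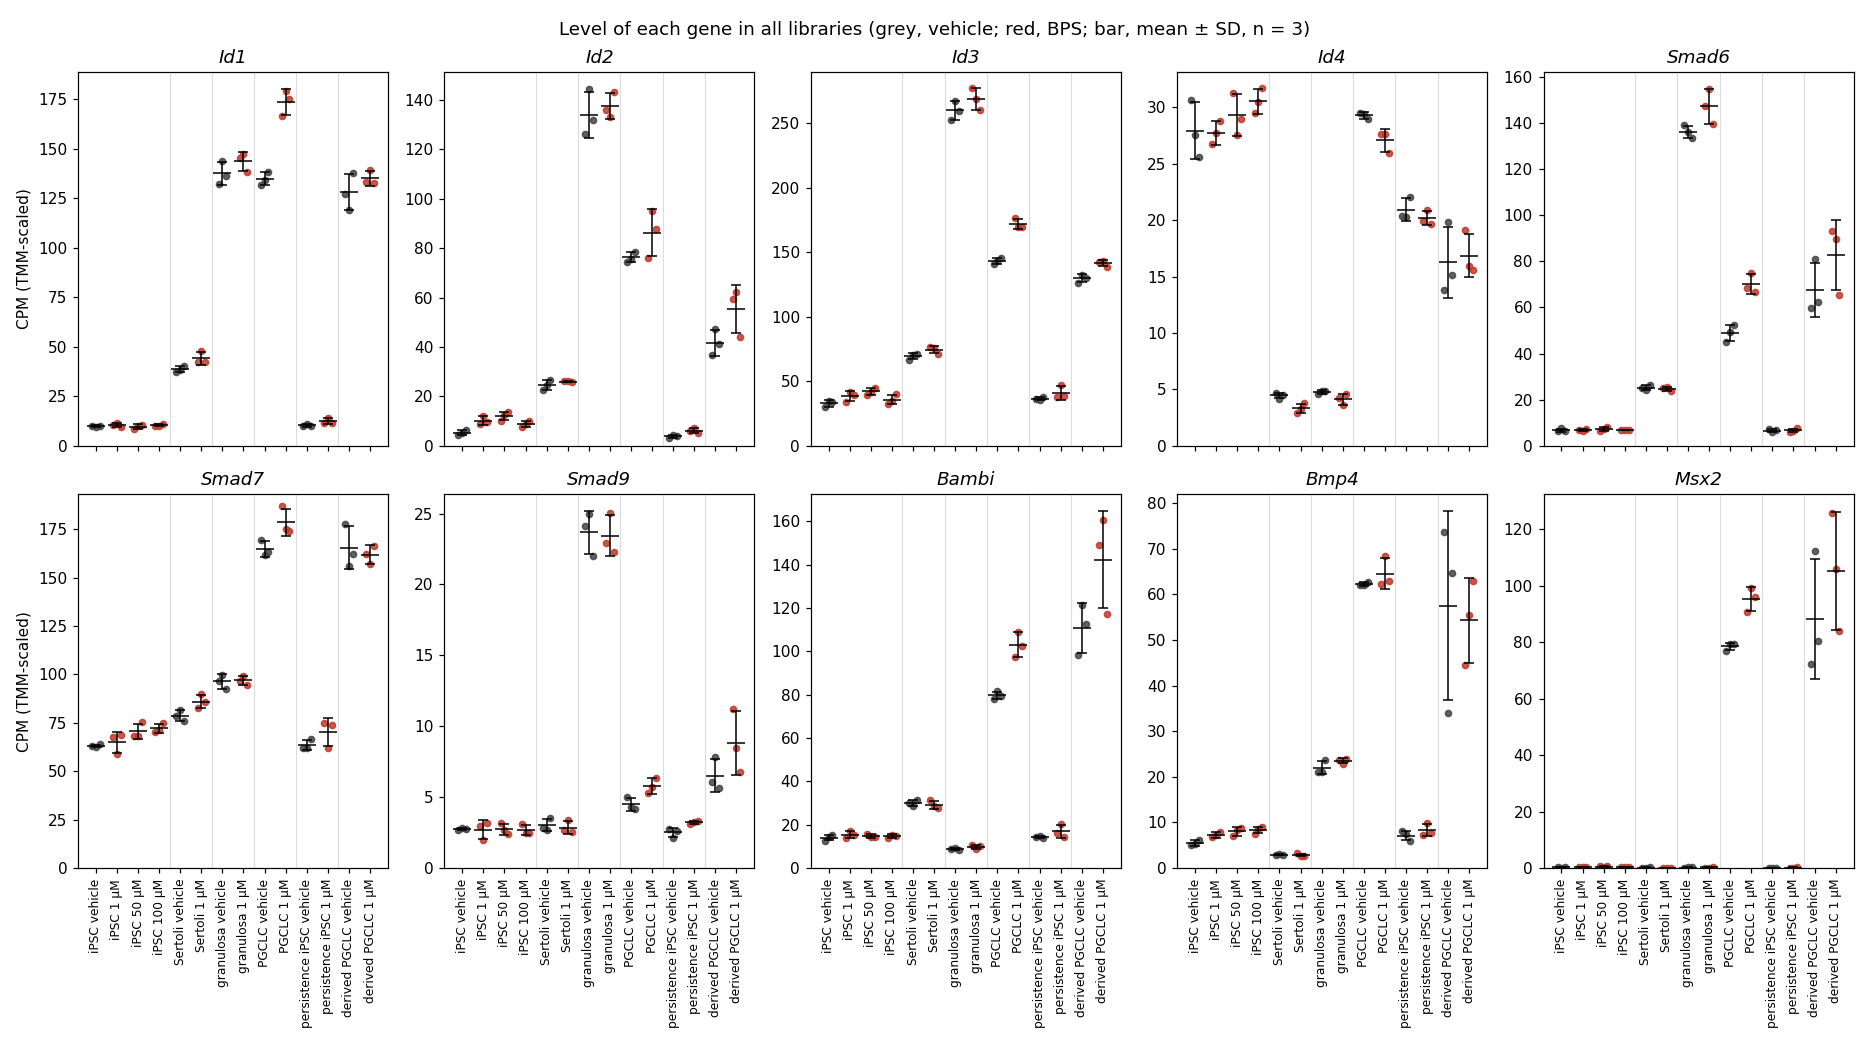
CPM of each gene in all 42 libraries, with 1 panel per gene and the 14 groups along the horizontal axis. Grey points are vehicle and red points BPS libraries, and bars give the mean ± SD of 3. The largest steps lie between cell types, such as Id2 at 126 to 144 CPM in granulosa vehicle and 4.57 to 6.32 CPM in iPSC vehicle, and Bmp4 in derived PGCLC vehicle spreads from 34.1 to 73.5 CPM.

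Most members were higher in PGCLCs than in iPSCs. Cell type, culture batch and BMP4 in the medium differed together in these comparisons and cannot be told apart. In the dose series and the direct PGCLC experiment, 9 of the 10 members were higher in vehicle PGCLCs and none was lower, against 37.7% of 18847 genes higher and 75% called in either direction (limma, Benjamini-Hochberg adjusted p of 0.05 or less). Id2 went from 4.57, 5.20 and 6.32 CPM in iPSCs to 74.6, 75.7 and 78.4 CPM in PGCLCs, a log2 fold change of 3.83 (SE 0.110). Id1 had a log2 fold change of 3.77 (SE 0.0553), Bmp4 of 3.51 (SE 0.187), Smad6 of 2.84 (SE 0.0972), Bambi of 2.5 (SE 0.0741) and Id3 of 2.13 (SE 0.0472). Smad7 rose by 1.38 (SE 0.0446) and Smad9 by 0.70 (SE 0.139) on the log2 scale. Id4, the ID gene tied to neural and testicular stem cells, read 30.6, 27.6 and 25.6 CPM in iPSCs and 29.5, 29.4 and 29.0 CPM in PGCLCs, with a difference of 0.07 (95% interval -0.14 to 0.28, adjusted p = 0.527). Msx2 had 27 reads over the 3 iPSC libraries and 7248 over the PGCLC libraries, a ratio of summed CPM of 249 (95% exact interval 171 to 377, counting error only).

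In the persistence experiment, derived PGCLCs against iPSCs gave 9 members higher and 1 lower (35.9% of genes higher, 73.3% called in either direction). Here Id2 went from 3.28, 4.20 and 3.92 to 36.7, 47.1 and 41.0 CPM (log2 fold change 3.44, SE 0.110). Bambi reached 98.5, 121 and 113 CPM from 14.2, 14.6 and 13.8 (2.96, SE 0.0741), and Smad6 reached 59.7, 81.2 and 62.3 CPM from 7.29, 5.99 and 6.70 (3.33, SE 0.0972). Id4 was the member that was lower, at 13.8, 19.8 and 15.2 CPM against 20.4, 20.3 and 22.1 (log2 fold change -0.38, SE 0.100, limma adjusted p = 0.00234), and the groups did not overlap. Msx2 had 10 reads in all in the iPSCs and 8801 in the derived PGCLCs, a ratio of summed CPM of 810 (95% exact interval 440 to 1690). Of the 83 other BMP pathway genes listed, 72 were tested here, of which 50 were higher and 8 lower (median log2 difference 1.04, against -0.01 over all genes). Those with the smallest adjusted p were Bmp1, a procollagen and chordin protease (6.91, from 1.13 to 140 CPM), Skil, a SMAD corepressor (1.98, from 30.7 to 122 CPM), and Fstl1, a secreted BMP antagonist (2.39, from 39.1 to 205 CPM).

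**Figure D3:**
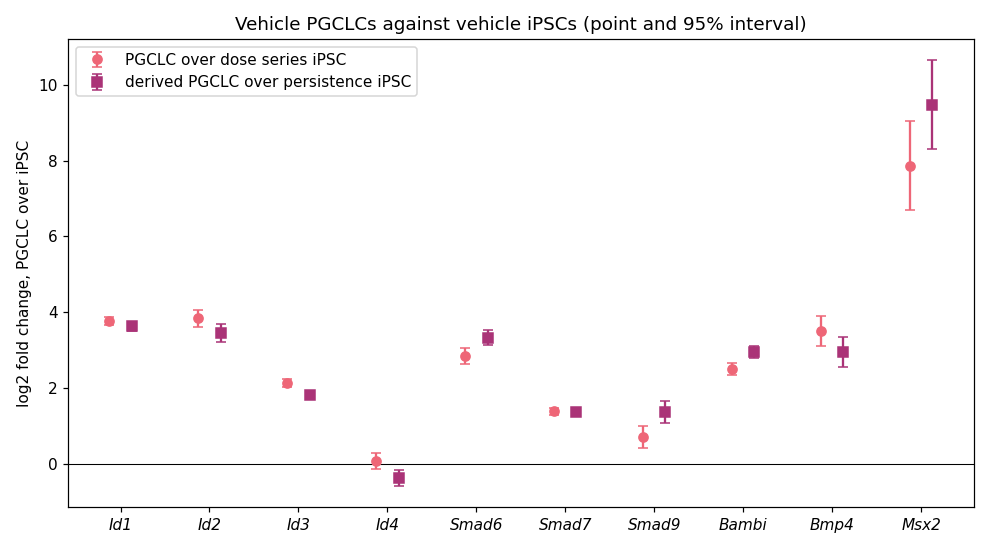
Log2 fold change of vehicle PGCLCs over vehicle iPSCs for each gene, in the direct (circles) and the persistence experiment (squares), with 95% intervals. The intervals of 9 genes lie above 0 in each experiment, and Id4 lies at 0.07, with an interval across 0, and at -0.38. The wide Msx2 intervals rest on iPSC libraries with 1 to 12 reads, and the fitted Msx2 values depend on the CPM added before the log.

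The 2 PGCLC preparations and the 2 iPSC preparations were not alike in every member. Between the vehicle derived and the vehicle directly cultured PGCLCs, 6 members were called, beside 42.5% of all genes. Id2 was lower in derived PGCLCs by a log2 difference of -0.88 (SE 0.110), Id4 by -0.86 (SE 0.100) and Id3 by -0.14 (SE 0.0472), while Smad9, Bambi and Smad6 were higher by 0.52, 0.47 and 0.46. Between the 2 vehicle iPSC groups, 3 members were called, beside 28.1% of genes: Id2 (-0.49) and Id4 (-0.41) were lower and Id3 (0.16) higher in the persistence experiment. Experiment and time of culture cannot be told apart in these differences. Summed fibroblast markers were at 280 to 409 CPM in vehicle derived PGCLCs and 77.8 to 81.7 CPM in vehicle directly cultured PGCLCs. Smooth muscle markers were at 74.6 to 129 and 36.2 to 37.3 CPM, while pluripotency markers were lower in derived PGCLCs (2393 to 3236 against 3406 to 3454 CPM). The part of these markers in the member differences was not tested.

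Among somatic cells, granulosa cells had the higher level of most members. Sertoli against granulosa vehicle called 8 members, beside 69.6% of genes, and 7 of the 8 were lower in Sertoli cells. Smad9 read 2.86, 2.70 and 3.5 CPM in Sertoli cells and 24.1, 25 and 22.0 CPM in granulosa cells (log2 difference -2.97, SE 0.139), Bmp4 differed by -2.89 (SE 0.187) and Id2 by -2.44 (SE 0.110). Bambi alone was higher in Sertoli cells, at 30.1, 28.9 and 31.6 CPM against 8.83, 9.35 and 8.16 (1.78, SE 0.0741). Against dose series iPSCs, 9 members were called in Sertoli cells (89.1% of genes called) and 9 in granulosa cells (88.4%). Id4 was lower in both, by -2.63 and -2.54 on the log2 scale. Rescaling to the upper quartile moved the median of all genes by -0.14 in the Sertoli against iPSC comparison, where Bmp4 (-0.88) and Smad7 (0.32) differed by more than that shift and Smad9 (0.12) did not.

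Direct exposure of PGCLCs to 1 μM BPS was the comparison in which most members rose. Of 10 tested, 8 were higher and none was lower, against 15.4% of 16342 genes higher and 26.6% called in either direction. Because the members were chosen with earlier results of these data known, this count describes them and does not test them as a set. Their median log2 fold change was 0.27, beside 0.02 over all genes. The largest was that of Smad6, the inhibitory SMAD of the BMP branch, which read 45.1, 49.3 and 52.2 CPM in vehicle and 68.6, 75 and 66.8 CPM with BPS (log2 fold change 0.52, SE 0.0537, adjusted p = 7.39e-06 in limma). Bambi went from 78.2, 81.5 and 79.2 to 97.4, 109 and 103 CPM (0.37, SE 0.0405, adjusted p = 1.31e-05 in limma). The lowest exposed library lay above the highest vehicle library for each of these genes. Id1 went from 132, 134 and 138 to 166, 179 and 175 CPM (0.36, SE 0.0347, limma adjusted p = 3.27e-06), and Id3 from 141, 144 and 146 to 176, 170 and 170 CPM (0.26, SE 0.0308, limma adjusted p = 2.65e-05). Msx2 went from 77, 79.4 and 79.2 to 90.8, 99.1 and 96.1 CPM (0.28, SE 0.0378, limma adjusted p = 9.21e-05). None of these 3 overlapped between the groups either. The members whose groups did not overlap numbered 8, beside 41.3% of all tested genes.

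The other 3 calls were weaker. Smad7, which restrains TGF-β and BMP receptors alike, went from 169, 161 and 163 to 187, 175 and 174 CPM (0.12, SE 0.0346, limma adjusted p = 0.0211). Smad9 read 5.01, 4.31 and 4.17 CPM in vehicle and 5.27, 5.69 and 6.37 CPM with BPS (0.36, SE 0.111, limma adjusted p = 0.0265). Id2 overlapped between groups, at 74.6, 75.7 and 78.4 against 76.1, 94.9 and 87.8 CPM (0.17, SE 0.0587, limma adjusted p = 0.0401). Bmp4 did not pass the test, at 62, 62 and 62.7 against 62.3, 68.4 and 62.9 CPM (0.05, 95% interval -0.04 to 0.14), and Id4 was at 29.5, 29.4 and 29.0 against 27.7, 27.6 and 25.9 CPM (-0.11, limma adjusted p = 0.0877). Without vehicle replicate 1, the library that stood apart, 7 members were called and Smad6 had a log2 fold change of 0.46. Without vehicle replicate 2 or without vehicle replicate 3, 5 members were called, and the calls of Smad7 and Smad9 as well as Id2 were among those lost. Smad9 was also lost without exposed replicate 2 or 3, and Id2 when any single library except exposed replicate 1 was left out, and in limma-voom (adjusted p = 0.0506). Id1, Id3, Smad6, Bambi and Msx2 were called whichever library was left out. A fit of all 42 libraries called 4 members, Id1, Id3, Smad6 and Bambi, and Msx2 had a limma adjusted p of 0.814 there. Upper-quartile rescaling turned the split over all genes from 2511 higher and 1843 lower to 1735 higher and 2576 lower, and with it Id2 and Smad7 were no longer called and Id4 was called lower (-0.15).

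**Figure D4:**
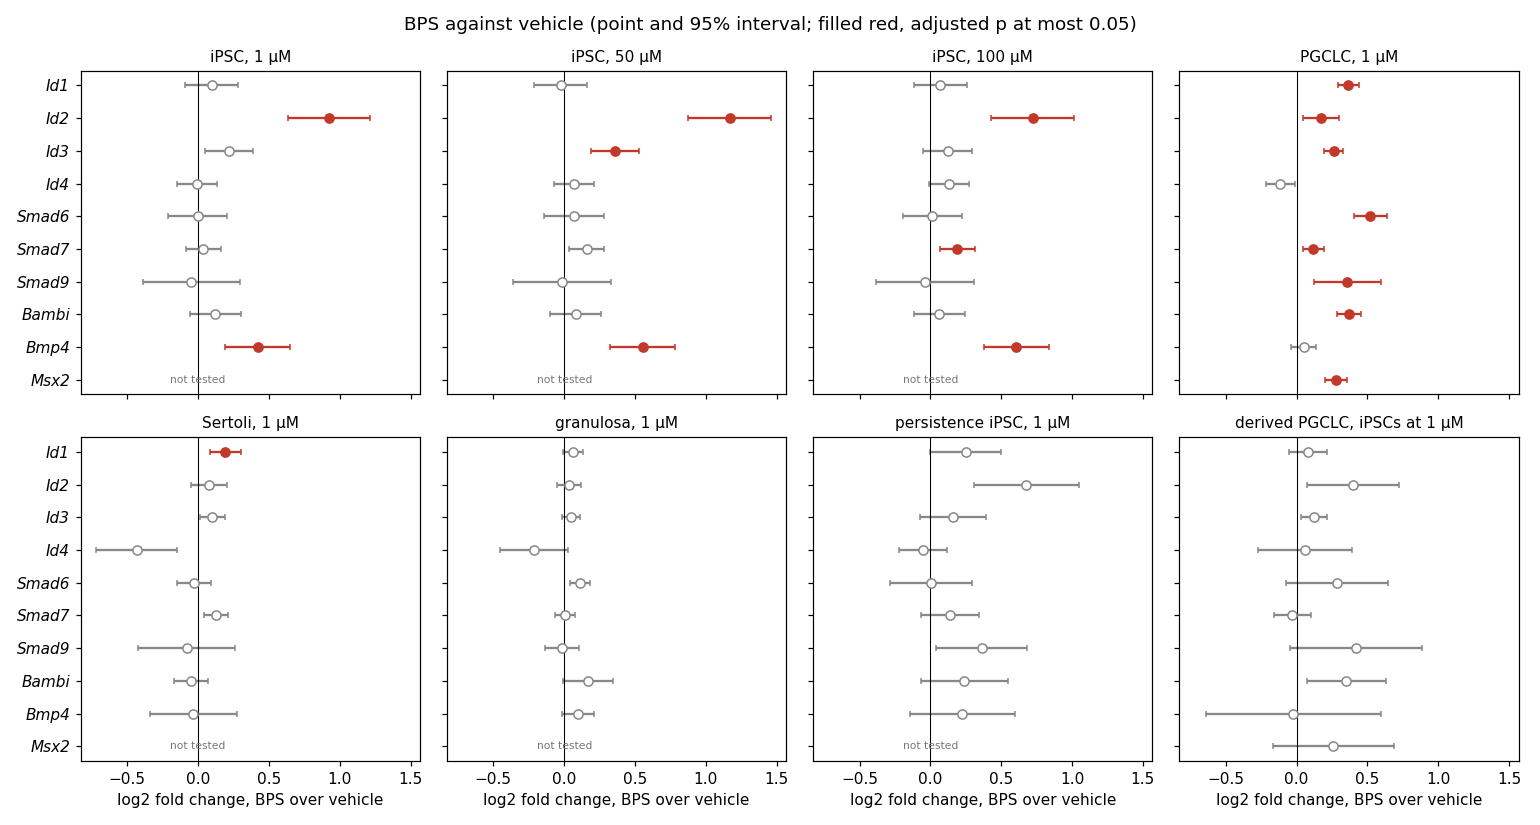
Log2 fold change of BPS over vehicle for each gene in the 8 BPS comparisons, with 95% intervals. Filled red points have an adjusted p of at most 0.05 in limma, and Msx2 was not tested where its CPM was below the filter. In the PGCLC panel 8 of 10 points are filled, in the iPSC panels 2, 3 and 3, in the Sertoli panel 1 and in the other 3 panels none.

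Other genes of the pathway were read from lists of 83 genes chosen by role, also with earlier results known, so their counts are descriptive. In directly exposed PGCLCs 64 were tested, of which 20 were higher and 4 lower (median log2 fold change 0.09). Of 16 tested BMP target genes outside the 10 members, 10 were higher and 1 lower, with a median of 0.24. Hand1, a transcription factor of extraembryonic mesoderm and heart, went from 309 ± 4.55 to 460 ± 29.2 CPM (n = 3, log2 fold change 0.57). Cdx2, a factor of trophectoderm and posterior mesoderm, went from 80.1 ± 2.5 to 112 ± 4.49 CPM (0.49), and Atoh8 from 3.07 ± 0.245 to 6.07 ± 0.234 CPM (0.98). All of these are to be read beside the 15.4% of genes higher and 26.6% called in this comparison. In the ligand list of 7 tested genes, Bmp7 and the protease gene Bmp1 were higher and 0 were lower, among 10 receptors and coreceptors 2 were higher and 1 lower, and among 11 secreted antagonists 1 was higher and 0 lower.

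Cell markers moved in the same libraries. All 8 pluripotency markers passed the test as lower with BPS (limma), from a sum of 3406 to 3454 CPM in vehicle to 2688 to 2992 CPM, and 4 of the 8 PGCLC markers passed as lower and none as higher, with a sum of 275 to 283 CPM in vehicle and 233 to 265 CPM with BPS. Of those that did not pass, the sorting marker gene Fut4 had means of 6.35 in vehicle and 7.80 CPM with BPS and Dnd1 of 21.1 and 23.0 CPM. The part of this shift in the member changes was not tested. In the derived PGCLCs the summed pluripotency markers were at 2393 to 3236 CPM in vehicle and 1865 to 2761 CPM in the progeny of exposed iPSCs, and those ranges overlapped.

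**Figure D5:**
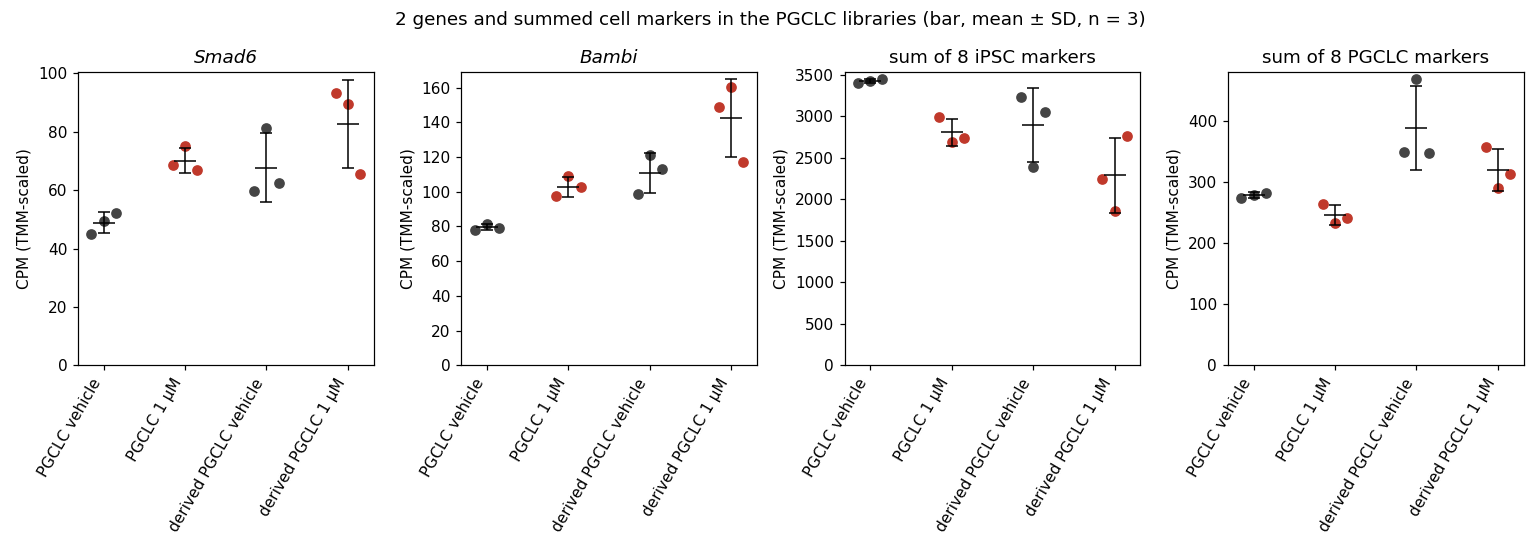
CPM of Smad6 and Bambi and the summed CPM of 8 pluripotency and 8 PGCLC markers in the 12 PGCLC libraries, with bars for the mean ± SD of 3. In directly exposed PGCLCs both genes lie above, and both sums below, the vehicle libraries without overlap, whereas the derived groups overlap in each panel.

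In iPSCs a different pair of members led. Id2 read 4.57, 5.20 and 6.32 CPM in vehicle and 8.69, 12.2 and 9.73 CPM at 1 μM, a log2 fold change of 0.92 (SE 0.139, limma adjusted p = 0.0004). At 50 μM it was at 10, 12.6 and 13.5 CPM (1.17, limma adjusted p = 1.07e-05) and at 100 μM at 7.54, 9.03 and 9.96 CPM (0.72, limma adjusted p = 0.000804). Every exposed library was above every vehicle library. Bmp4 went from 4.96, 5.23 and 6.21 CPM in vehicle to 6.75, 7.21 and 7.98 CPM at 1 μM (0.42, SE 0.110, limma adjusted p = 0.0228), 6.95, 8.44 and 8.72 CPM at 50 μM (0.55) and 7.49, 8.57 and 8.90 CPM at 100 μM (0.61). The 3 exposed groups share the same 3 vehicle libraries, so the doses are not independent of each other. The call of Bmp4 at 1 μM was lost without vehicle replicate 1 or 2, without exposed replicate 3 (adjusted p up to 0.120 in limma) and in the fit of all 42 libraries.

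The number of members called was 2 of 9 tested at 1 μM (5.61% of 16349 genes higher, 8.54% called in either direction), 3 at 50 μM (13.1% higher, 26.4% called) and 3 at 100 μM (15.3% higher, 30.7% called). Their median log2 fold change was 0.10, 0.08 and 0.12 at the 3 doses, beside -0.01, -0.00 and -0.00 over all genes. The third call was Id3 at 50 μM, at 39.6, 42 and 45 CPM against 29.9, 34.6 and 34.2 (0.36, SE 0.0823, limma adjusted p = 0.00346). At 100 μM it was Smad7, at 70.4, 71.3 and 74.7 CPM against 63.1, 62.7 and 63.9 (0.19, SE 0.0589, limma adjusted p = 0.0194), a call lost without vehicle replicate 1 or 2 or exposed replicate 3. With the upper-quartile scale the split of all calls at 50 μM moved from 2139 higher and 2175 lower to 2505 and 1642. Id1, Smad6, Smad9, Bambi and Id4 were called at no dose, and Smad6 had an interval of -0.21 to 0.21 at 1 μM. No member differed between 50 and 1 μM (0.00612% of genes called) or between 100 and 1 μM (0.44%). Id2 differed by 0.24 (95% interval -0.05 to 0.54) and by -0.20 (-0.49 to 0.09) in these comparisons, so the order of its doses was not resolved. Msx2 had 6 to 19 reads in each iPSC library of this series and was not tested.

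Markers moved in the dose series as well. Summed PGCLC markers were at 179 to 182 CPM in vehicle iPSCs and at 142 to 153, 137 to 144 and 139 to 142 CPM at 1, 50 and 100 μM. Summed pluripotency markers were at 5440 to 5611 CPM in vehicle and at 5664 to 6191, 5867 to 6067 and 5876 to 6082 CPM at these doses. Neither sum overlapped with vehicle at any dose, and the part of these shifts in the member changes was not tested.

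Of the 51 other pathway genes tested in iPSCs, 5, 11 and 15 were higher and 1, 6 and 4 lower at 1, 50 and 100 μM. These counts are to be read beside the shares of all genes at these doses. Of all genes, 5.61, 13.1 and 15.3% were higher, and 8.54, 26.4 and 30.7% were called in either direction. The list of secreted antagonists accounted for 4, 4 and 5 of the higher calls among 8 tested, and 1 of these at each dose was Tll1, a tolloid protease gene rather than an antagonist. At 1 μM the named genes were Fst, which encodes the activin and BMP binder follistatin (44.5 ± 3.33 to 57.1 ± 4.87 CPM, log2 fold change 0.36), Fstl1 (73.3 ± 1.39 to 86.5 ± 3.22 CPM, 0.24) and Tcf3, an E protein that pairs with ID proteins (248 ± 5.60 to 211 ± 13.8 CPM, -0.23). Fst (0.45), Fstl1 (0.29) and Cdx2 (0.88) led at 50 μM. Htra1, a secreted protease (6.40 ± 1.11 to 13.0 ± 1.51 CPM, 1.02), Tbx3 (205 ± 2.59 to 262 ± 5.59 CPM, 0.35) and Cdx2 (0.83) led at 100 μM. Between 100 and 1 μM, Tbx3 (0.26) and the coactivator gene Crebbp (0.36) were higher, and no other pathway gene was called.

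The difference in response to 1 μM BPS between directly exposed PGCLCs and dose series iPSCs was tested as an interaction. It was called for 4 of 10 members, beside 13.4% of 17366 genes. Smad6 (0.52, SE 0.110, limma adjusted p = 0.0063) and Id1 (0.27, SE 0.0827, limma adjusted p = 0.0441) responded more in PGCLCs. Id2 (-0.75, SE 0.169, limma adjusted p = 0.00951) and Bmp4 (-0.37, SE 0.113, limma adjusted p = 0.0417) responded more in iPSCs. Leaving out 1 library at a time gave 2 to 5 calls. The call of Id1 was lost in 9 of these 12 fits, as was that of Bmp4 (in a partly different 9), and those of Smad6 and Id2 were kept in each of these fits. Bambi (0.25, 95% interval 0.02 to 0.48, limma adjusted p = 0.144) and Id3 (0.04, -0.15 to 0.24) were not called. Exposure vessel, time after exposure and BMP4 in the medium differed between these experiments together with cell type and cannot be told apart.

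In Sertoli cells 1 of 9 members was called, beside 5.24% of 15648 genes (3.76% higher). Id1 went from 37.1, 38.5 and 40.3 to 42.3, 47.8 and 42.5 CPM (log2 fold change 0.19, SE 0.0529, limma adjusted p = 0.0405). Its groups did not overlap, but the call was lost without vehicle replicate 1 or 2, without exposed replicate 1 or 2, without the filter, in the fit of all 42 libraries, and with the upper-quartile scale, which changed the split of all calls from 588 higher and 232 lower to 331 and 309. Id4 read 4.68, 4.18 and 4.54 CPM in vehicle and 2.90, 3.29 and 3.76 CPM with BPS (-0.43, SE 0.136, limma adjusted p = 0.0674). Id4 passed without exposed replicate 3 (limma adjusted p = 0.0401) and in the fit of all 42 libraries (0.0203), and Smad7 differed by 0.13 (limma adjusted p = 0.0718). Each of those pairs of groups was free of overlap, as were 25.6% of all tested genes. Of 61 other pathway genes, Ybx1 was higher (0.15) and Bmp1 lower (-0.18). In the same libraries, summed testis germ cell markers went from 20.9 to 23.6 CPM in vehicle to 12.9 to 17.7 CPM with BPS. Summed fibroblast markers went from 1104 to 1195 to 976 to 1060 CPM. The steroidogenic list, mostly Star (means of 180 and 164 CPM), went from 193 to 200 to 178 to 182 CPM. None of these sums overlapped between groups, and their part in the member values was not tested.

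Granulosa cells had the highest vehicle mean of Id1, Id2, Id3, Smad6 and Smad9. With BPS, none of 9 members was called there by limma at an adjusted p of 0.05, beside 2.6% of 15712 genes. The nearest was Smad6, at 139, 136 and 134 CPM in vehicle and 148, 155 and 139 CPM with BPS (0.11, SE 0.0339, limma adjusted p = 0.0966), which passed without exposed replicate 3. The intervals were narrow for several members: Id1 -0.01 to 0.13, Id2 -0.05 to 0.12, Id3 -0.01 to 0.11 and Smad7 -0.06 to 0.08. The upper-quartile scale changed the split of all calls from 306 higher and 103 lower to 182 and 162. Of 61 other pathway genes, Acvrl1, a type I receptor gene, was higher (0.29), and Ybx1 (-0.19), Runx2 (-0.20) and Bmper (-0.11) were lower. Summed smooth muscle markers went from 2204 to 2266 CPM in vehicle to 2448 to 2565 CPM with BPS and fibroblast markers from 3215 to 3446 to 3448 to 3796 CPM, without overlap, and their part was not tested. No member differed in response between Sertoli and granulosa cells (1.28% of 16791 genes called).

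In the persistence experiment no member was called in the exposed iPSCs, beside 0.0128% of 15572 genes, and none in the derived PGCLCs, beside 0.0% of 16268 genes. The study itself, with edgeR, reported differential genes in both comparisons and named Id2 among those found in both. At an unadjusted p under 0.05, 1744 and 2578 of all genes passed in these comparisons, and with limma-voom, run on whole reads, 0 genes passed in each. Id2 read 3.28, 4.20 and 3.92 CPM in vehicle iPSCs and 5.83, 7.28 and 5.24 CPM in exposed iPSCs (log2 fold change 0.68, 95% interval 0.31 to 1.05, limma adjusted p = 0.318), without overlap of the groups. It was called there without exposed replicate 2, the library that stood apart (log2 fold change 0.55, limma adjusted p = 0.0158), as was Smad7 (0.23, limma adjusted p = 0.00256), and over all genes 556 were then higher and 928 lower, beside 2 and 0 with it. Id2 was also called in the fit of all 42 libraries (limma adjusted p = 0.00316), which also called Id1 (0.029). In the derived PGCLCs Id2 read 36.7, 47.1 and 41.0 CPM in vehicle and 59.5, 62.3 and 44.1 CPM in the progeny of exposed iPSCs (0.40, 95% interval 0.07 to 0.73, limma adjusted p = 0.252), and the groups overlapped through exposed replicate 3. Bambi read 98.5, 121 and 113 against 149, 161 and 117 CPM (0.35, 95% interval 0.07 to 0.63, limma adjusted p = 0.247), and passed in the fit of all 42 libraries (0.0488). Exposed replicate 3 was also the lowest of its group for Smad6 (65.4 against 93.2 and 89.7 CPM), Smad9 (6.77 against 11.2 and 8.47) and Msx2 (83.9 against 126 and 106). Bmp4 had the widest interval, -0.64 to 0.60, with vehicle replicate 2 at 34.1 CPM against 73.5 and 64.7.

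The responses in the persistence experiment were set against the others. Between persistence iPSCs and dose series iPSCs no member differed in response (0.0% of 16233 genes called), and the Id2 difference was -0.25 (95% interval -0.75 to 0.26). Between derived and directly exposed PGCLCs no member was called (1.97% of 16894 genes), and Id1 had a difference of -0.28 (SE 0.0700, limma adjusted p = 0.0569) that passed without derived vehicle replicate 2 (limma adjusted p = 0.0113). Between derived PGCLCs and persistence iPSCs none was called either (0.0058% of 17247 genes). Of the other pathway genes, none of 48 tested in the iPSCs and none of 65 in the derived PGCLCs was called by limma.

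Across the 14 group means of log2 CPM, Id1, Id2, Id3 and Smad6 followed each other, with Pearson coefficients of 0.95 to 0.99. Smad7, Bambi, Bmp4 and Msx2 formed looser pairs, such as 0.91 for Smad7 with Msx2 and 0.63 for Bambi with Bmp4. Id4 stood against most of them, from -0.52 with Smad6 to 0.41 with Msx2. Among 13933 genes with a mean of at least 5 CPM in some group, the genes outside the members most like each were Fam171b (0.994) and Meis3 (0.989) for Id1, Jph1 (0.984) and Zfp618 (0.983) for Id2, Perp and Nrk (both 0.986) for Bambi and Car4 and Porcn (both 0.994) for Msx2. For Smad6 they were the cadherin gene Cdh11 and the fibrillin gene Fbn2 (both 0.996), and for Bmp4 they were Gm15222 (0.989) and Megf6 (0.986). Gm15222 is annotated on the opposite strand within an intron of Bmp4 and shares no exon bases with it. These coefficients rest on 14 groups that share cell types, libraries and scaling, and mostly describe differences between 4 cell types.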

How the data were processed

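Poly(A) RNA of 42 samples was sequenced from strand-specific libraries. Per the methods and labels, the authors used FastQC for read quality, Rsubread for alignment to mm10 and gene counting, and TMM scaling in edgeR. The authors deposited log2 CPM values for 22186 genes, with 0.0313 CPM added before the log, so that 0 reads stand at -5.00. Which annotation, strand setting and filters they used is not stated in those sources. Dividing the CPM by the worth of 1 read gave whole reads within 0.05 for at least 99.9% of values in each library, which set the depth.

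The deposited values were fitted with limma 3.58.1 in R 4.3.3 (eBayes with a trend) over genes with at least 0.5 CPM in 3 libraries of the fit. The dose series was 1 fit of 12 libraries, the 7 cell comparisons 1 fit of 18 vehicle libraries, and the other BPS comparisons fits of 6. Calls were two-sided, with p adjusted by Benjamini-Hochberg over all genes of the fit and a threshold of 0.05. Differences between responses were 5 interactions. Fold changes are on the log2 scale of CPM plus 0.0313, which understates changes of low genes. Per-kb levels divide CPM by the merged exon length of GENCODE M21. Exons of Id4 and Bmp4 share bases with 2 and 1 other annotated genes, whose reads may be mixed. Exact intervals of ratios cover counting error only.

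Alternatives were no filter, 1 CPM added, upper-quartile rescaling, limma-voom on whole reads, 1 fit across the 42 libraries, the replicate number as a block and leaving out each library. No pair of replicates was as alike as counting error alone would make it. The fits were run on simulated counts with the same relative spread set for all genes and no library that stood apart. These data differ in both, so that run does not show how the fits behave here. The members and the pathway and marker lists were chosen with earlier results of these data known. The 10 members were all described, up to 3 called pathway genes per comparison were named by smallest adjusted p among those with a mean of at least 1 CPM, and the 2 genes most like a member by Pearson coefficient were named for 6 members. Figures were drawn with matplotlib 3.10.9 in Python 3.11.15.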

Additional observations from a re-analysis of the deposited data

Results flagged for a closer look

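The response to 1 μM BPS of 4 genes differed between directly exposed PGCLCs and dose series iPSCs in an interaction test over 12 libraries (limma, adjusted over 17366 genes). On the log2 scale, PGCLC minus iPSC, the difference was 0.52 for Smad6 (adjusted p = 0.0063), 0.27 for Id1 (adjusted p = 0.0441), -0.75 for Id2 (adjusted p = 0.00951) and -0.37 for Bmp4 (adjusted p = 0.0417). Smad6 was at a log2 fold change of 0.52 in PGCLCs and -0.00 in iPSCs, and Id2 at 0.17 and 0.92. The calls of Id1 and Bmp4 were lost in most fits that left out 1 library, and those of Smad6 and Id2 were kept in each. That of Id1 was also lost without the filter and with the replicate number as a block. Groups held 3 libraries, too few to look for a library that stands apart within a group by a test.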

How the results depend on the processing

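Each count here is the number of members called by limma. With 1 fit of all 42 libraries it changed from 2 to 1 for iPSCs at 1 μM, from 8 to 4 for directly exposed PGCLCs, from 0 to 2 for persistence-experiment iPSCs and from 0 to 1 for derived PGCLCs. In Sertoli cells it went from 1 to 0 without the filter and with the upper-quartile scale. Leaving out 1 library gave 1 to 3 in iPSCs at 1 μM, 0 to 2 in Sertoli cells, 0 to 1 in granulosa cells, 5 to 8 in directly exposed PGCLCs and 0 to 2 in persistence-experiment iPSCs. It gave 0 to 1 for derived minus directly exposed PGCLCs and 2 to 5 for directly exposed PGCLCs minus iPSCs. No member turned direction while called, and the causes of these changes were not tested.

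The replicate numbers were not used to pair the samples, since correlations of same-numbered exposed and vehicle samples were not all above 0.1. These are correlations of deviations from group means of 3 libraries, so they cannot show that no pairing existed. Pairing of persistence iPSCs with the PGCLCs derived from them was not examined. With the replicate block, the count was 2 instead of 1 in Sertoli cells, 3 instead of 2 in iPSCs at 1 μM, 4 instead of 3 at 50 μM and 3 instead of 4 for directly exposed PGCLCs minus iPSCs. Over all genes, the block called 937 higher and 361 lower in Sertoli cells (588 and 232 without it) and 0 in persistence-experiment iPSCs (2 without it).

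Over all genes, the fit of 42 libraries called 103 higher and 104 lower in Sertoli cells (588 and 232 otherwise), 21 and 17 in granulosa cells (306 and 103), 944 and 675 in directly exposed PGCLCs (2511 and 1843), 716 and 1330 in persistence-experiment iPSCs (2 and 0) and 377 and 344 in derived PGCLCs (0 and 0). Upper-quartile scaling called 3 genes in persistence-experiment iPSCs, and limma-voom called 0. Smad9 had an SE of 0.165 in iPSCs, so a change of the size of Smad7 in PGCLCs (0.12) was not detectable there, and Msx2 was too low to test in 4 of the cell preparations.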
